A study of Homo sapiens with 8 samples.

Results

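The genes described here carry glucose into the cell, break it down to pyruvate and lactate, and include hypoxia-inducible genes of other function. The 33 genes were taken by symbol from the 23391 genes of the deposited count table, with PKM, the muscle-type pyruvate kinase, listed under its older symbol PKM2. They comprised 2 glucose transporters, 15 enzymes of the 10-step path from hexokinase to pyruvate kinase, 3 enzymes that make and remove fructose-2,6-bisphosphate, 6 genes of lactate and pyruvate handling and 7 hypoxia-inducible genes outside glycolysis. Genes were tested when 2 or more libraries held 1 or more reads per 1000000 (cpm), and 32 of the 33 passed. CA9, a carbonic anhydrase of the cell surface, had 0 reads in all 8 libraries, where a floor of 3 reads stands at 0.255 to 0.391 cpm.

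The study asked which messenger RNAs respond to the orphan nuclear receptor Esrrb in prostate cancer cells. DU145, an established human prostate cancer cell line, had been stably transfected with an Esrrb expression vector or with the empty pcDNA3.1-zeo vector. The Zeocine-resistant transfectants of each vector were pooled and called DU145-Esrrb and DU145-pc3.1, so each is selected and the antibiotic selection was shared by all groups. Whether the 2 libraries of a group came from the same pool or from separate transfections is not clear from the sources used here. Each is called a pool below. RNA-Seq libraries came from 4 groups of 2 libraries each. These were vehicle-treated DU145-pc3.1, vehicle-treated DU145-Esrrb, and both pools after 3 µM DY131, an agonist of estrogen related receptors beta and gamma, in medium with charcoal-stripped serum. The vehicle-treated groups are called untreated below, and the length of the treatment is not given in the sources used here.

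Glycolysis converts glucose to pyruvate, with hexokinase and phosphofructokinase as regulated steps. Lactate dehydrogenase and the monocarboxylate transporters then make and export lactate, while the pyruvate dehydrogenase kinases hold pyruvate back from the mitochondria. Under low oxygen the hypoxia-inducible factor HIF1 binds short motifs with the core ACGTG or GCGTG and raises transcription of many of these genes. The estrogen related receptors bind AAGGTCA and are known as regulators of energy metabolism. In tumour cells such as DU145 many of these genes are expressed at a high level also when oxygen is present.

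Each library held between 7858743 and 11551690 counted reads, and the lowest 2 totals were those of DY131-treated DU145-Esrrb cells. The 2 libraries of DY131-treated DU145-pc3.1 cells differed from each other more than those of any other group, with a chi-square per degree of freedom of 7.10 against 1.29 to 2.60. On ESRRB, 3 and 0 reads were counted in untreated DU145-pc3.1, 0 and 1 in the same pool with DY131, 104 and 99 in untreated DU145-Esrrb, and 105 and 143 in DU145-Esrrb with DY131. The 7 epithelial markers summed to 3769 to 4584 cpm. Of the prostate luminal markers, KLK3 and KLK2 were at 0 in all libraries. Fibroblast markers summed to 3.00 to 5.98 cpm with DCN at 0, and endothelial markers to 0.391 to 1.12 cpm. Of the leukocyte markers CD3E was at 0 and PTPRC had a mean of at most 0.0917 cpm in any group, so that the sum of 59.3 to 93.6 cpm came from CD68. Fewer cells that express a gene and less RNA per cell cannot be told apart in these bulk libraries.

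Levels between genes were compared per transcript length, as reads per kilobase and per 1000000 reads (RPKM), in untreated DU145-pc3.1 cells. GAPDH, which oxidises glyceraldehyde-3-phosphate, stood highest at 4114 RPKM. The enolase ENO1 followed at 1827, the aldolase ALDOA at 1487, the pyruvate kinase PKM at 1461 and the lactate dehydrogenase LDHA at 1217 RPKM. At the low end, the neuronal glucose transporter SLC2A3 stood at 0.317 RPKM and the aldolase ALDOC at 0.785 RPKM, whereas SLC2A1, the widely expressed glucose transporter, stood at 94.8 RPKM. The level of VEGFA, 392 RPKM, is uncertain because the transcript matched to it is short. Several levels are uncertain because 50-base windows of the transcript also occur in other genes or pseudogenes: 43.3% of the windows of PGAM1, 30.1% of TPI1, 24.2% of SLC2A3 (shared with SLC2A14), 20.3% of GAPDH, 19.1% of BNIP3 and 11.3% of LDHA. For ALDOA, LDHB and GAPDH, 97.9%, 58.5% and 41.8% of the windows lay in another annotated gene as well when overlapping gene models were included, and these counts are uncertain in the same way. So are those of further genes with smaller shares, among them ANKRD37 (30.4%), GPI (14.8%), ALDOC (10.7%) and HK2 (8.58%, shared with HK2P1).

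The 250 bases before the transcription start were searched on both strands for the HIF1 core motifs and for AAGGTCA in the RefSeq promoters of GRCh38.p14. Of the 33 genes 28 were matched. SLC2A3, PFKFB2, SLC16A1, VEGFA and NDRG1 were not. ACGTG occurred in 12 of the 28 promoters (42.9%), in 18.5% of all 35116 promoters and in 23.2% of the 9630 promoters matched to tested genes. GCGTG occurred in 10 (35.7%), against 32.2% and 45.9%. At least 1 of the cores was present in 17 (60.7%), against 43.2% and 57.6%. AAGGTCA was found in 1 promoter, that of ALDOC (3.57%), against 3.44% and 2.11%. These are letter matches and not measured binding sites. The promoters of 4 genes whose responses are described below are shown 5′ to 3′ on the strand of the gene, PGK1 and BNIP3 because they fell with DY131 in both pools, LDHA and PFKFB3 because they rose in both. Capitals mark ACGTG or GCGTG on either strand, and a palindromic match counts once per strand.
PGK1: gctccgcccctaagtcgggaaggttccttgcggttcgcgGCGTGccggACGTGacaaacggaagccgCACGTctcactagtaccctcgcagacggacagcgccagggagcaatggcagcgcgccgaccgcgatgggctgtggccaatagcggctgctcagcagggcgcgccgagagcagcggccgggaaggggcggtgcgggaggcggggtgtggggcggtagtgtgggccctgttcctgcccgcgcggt
BNIP3: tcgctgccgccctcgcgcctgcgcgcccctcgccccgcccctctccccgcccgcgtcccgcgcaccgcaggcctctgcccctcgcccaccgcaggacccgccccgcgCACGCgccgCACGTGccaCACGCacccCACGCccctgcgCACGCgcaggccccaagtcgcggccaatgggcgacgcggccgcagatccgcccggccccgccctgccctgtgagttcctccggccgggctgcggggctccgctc
LDHA: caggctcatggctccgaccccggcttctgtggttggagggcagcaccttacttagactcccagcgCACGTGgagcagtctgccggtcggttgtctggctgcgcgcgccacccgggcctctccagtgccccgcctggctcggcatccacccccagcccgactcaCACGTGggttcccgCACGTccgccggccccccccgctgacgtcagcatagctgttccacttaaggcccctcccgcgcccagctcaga
PFKFB3: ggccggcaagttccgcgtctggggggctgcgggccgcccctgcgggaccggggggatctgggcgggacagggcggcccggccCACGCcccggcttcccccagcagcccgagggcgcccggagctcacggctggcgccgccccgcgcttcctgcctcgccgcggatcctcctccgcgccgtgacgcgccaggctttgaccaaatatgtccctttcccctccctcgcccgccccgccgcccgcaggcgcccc
The windows lie at chrX:78103998-78104247 (plus strand), chr10:131981924-131982173 (minus strand), chr11:18394313-18394562 (plus strand) and chr10:6144671-6144920 (plus strand). PGK1 had 2 ACGTG and 1 GCGTG matches, BNIP3 2 and 4, LDHA 5 and 0, and PFKFB3 0 and 1. The promoters shown of genes that fell and of genes that rose both held a HIF1 core, as did 57.6% of the promoters matched to tested genes. EGLN3, which fell with DY131 in both pools, had none in its window, and bases outside the windows were not searched. Whether these motifs bear on the responses was not tested.

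Read share was highest in untreated DU145-pc3.1 cells, where the 33 genes together took 2.38% and 2.47% of all reads on genes in the 2 libraries. In untreated DU145-Esrrb cells they took 2.22% and 2.27%, in DY131-treated DU145-pc3.1 cells 2.11% and 2.13%, and in DY131-treated DU145-Esrrb cells 1.97% and 1.95%. The 4 groups did not overlap. The 15 enzymes from hexokinase to pyruvate kinase made up most of this, with 1.92% and 2.00% in untreated DU145-pc3.1 against 1.56% and 1.55% in DY131-treated DU145-Esrrb cells. For the 7 hypoxia-inducible genes outside glycolysis, the share was 0.121% and 0.122% in untreated DU145-pc3.1, 0.0987% and 0.101% in untreated DU145-Esrrb, 0.0869% and 0.0782% in DY131-treated DU145-pc3.1 and 0.0748% and 0.0756% in DY131-treated DU145-Esrrb cells. These shares are dominated by the most abundant genes, so the genes were next taken singly.

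**Figure D1:**
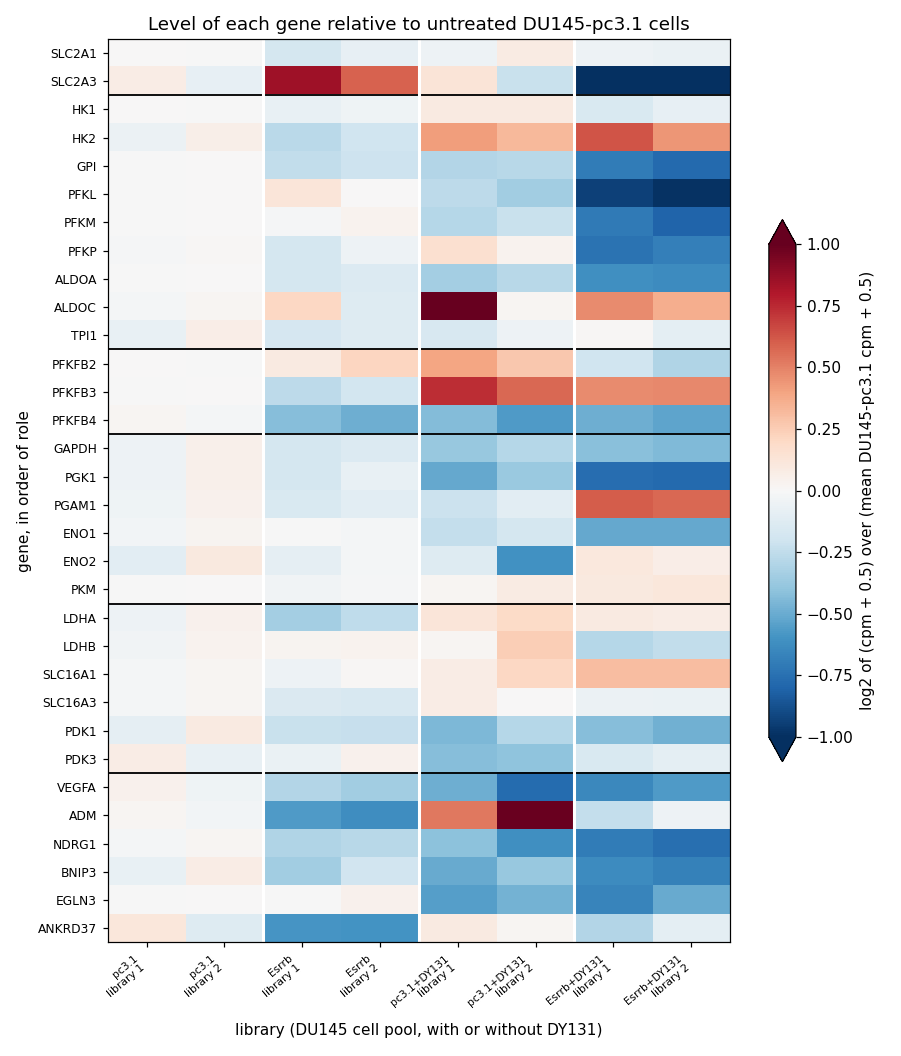
Level of the 32 tested genes (rows, in order of role, black lines between roles) in the 8 libraries (columns, by group), as log2 of cpm plus 0.5 over the mean of untreated DU145-pc3.1 plus 0.5, with colours limited at 1 in either direction. Most rows are white or pale blue in untreated DU145-Esrrb, and HK2 and PFKFB3 are red in all 4 DY131 libraries while GPI, PGK1, NDRG1 and BNIP3 are blue.

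The first comparison took the log2 fold change of the DU145-Esrrb pool over the DU145-pc3.1 pool, both without DY131. In it Esrrb and any other difference between these selected pools go together, and their parts were not tested separately. The terms "Esrrb alone", "with Esrrb" and "changed by Esrrb" below name this comparison and not a cause. At an adjusted p under 0.05 (edgeR quasi-likelihood F test, Benjamini-Hochberg adjustment over 13856 genes), 6 of the 32 genes fell and 0 rose. Across all tested genes 2.5% fell and 1.68% rose. None of the 32 genes also reached a log2 fold change of 1 in size, against 0.577% of all genes. Passing or not, 25 of the 32 log2 fold changes were below 0, and their median was -0.13 beside 0.00 over all genes tested. DESeq2 called 6 and edgeR's exact test 7 of the genes.

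The 6 genes that fell with Esrrb were PFKFB4, LDHA, GPI, VEGFA, NDRG1 and BNIP3. PFKFB4, an isoform of the bifunctional enzyme that sets fructose-2,6-bisphosphate, was at 45.9 and 44.6 cpm in DU145-pc3.1 and at 33.6 and 32.2 cpm in DU145-Esrrb (log2 fold change -0.46 ± 0.082 SE, adjusted p = 0.00425). LDHA, which reduces pyruvate to lactate, was at 1542 and 1646 cpm against 1262 and 1334 cpm (log2 -0.30 ± 0.059 SE, adjusted p = 0.00887). GPI, the glucose-6-phosphate isomerase (chromosome 19, 34359480 to 34402413 on GRCh38 in GENCODE 29), was at 757 and 765 cpm against 642 and 661 cpm (log2 -0.22 ± 0.055 SE, adjusted p = 0.0282). In each of these 3 genes both DU145-Esrrb libraries lay below both DU145-pc3.1 libraries. The same held for genes that did not pass, such as HK2 and GAPDH, and the share over all genes is not given here. The vascular growth factor VEGFA was at 504 ± 22.3 (SD, n = 2) and 404 ± 9.36 cpm, the stress-response gene NDRG1 at 229 ± 4.17 and 187 ± 1.71 cpm, and the mitophagy receptor BNIP3 at 436 ± 31 and 362 ± 27.1 cpm. Their log2 fold changes were -0.32, -0.29 and -0.27 (adjusted p = 0.0251, 0.0171 and 0.0369). The count of 6 depended on the libraries and changed whichever library was left out. It fell without a library of any other group and rose without either library of DY131-treated DU145-pc3.1. The count over all genes moved in the same direction each time, so these shifts are not particular to the genes described here.

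For the 26 genes that did not pass, log2 fold changes between DU145-Esrrb and DU145-pc3.1 ranged from -0.76 for ADM, a vasodilator peptide gene with a mean of 2.25 cpm, to 0.94 for SLC2A3. SLC2A3 had 1.34 and 1.14 cpm in DU145-pc3.1 and 2.63 and 2.12 cpm in DU145-Esrrb (adjusted p = 0.19), which left the groups apart but on few reads. PFKFB3 (-0.23, adjusted p = 0.0619) and HK2 (-0.24, adjusted p = 0.106) missed the threshold. ENO1 (-0.01), PKM (-0.02), PFKM (0.01) and EGLN3 (0.02) had log2 fold changes within 0.03 of 0. GAPDH, the reference gene of the study's quantitative PCR and Western blots (chromosome 12, 6533927 to 6538374), was at 5133 and 5498 cpm in DU145-pc3.1 and 4701 and 4824 cpm in DU145-Esrrb (log2 -0.16 ± 0.061 SE, adjusted p = 0.185), with both DU145-Esrrb libraries the lower ones.

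**Figure D2:**
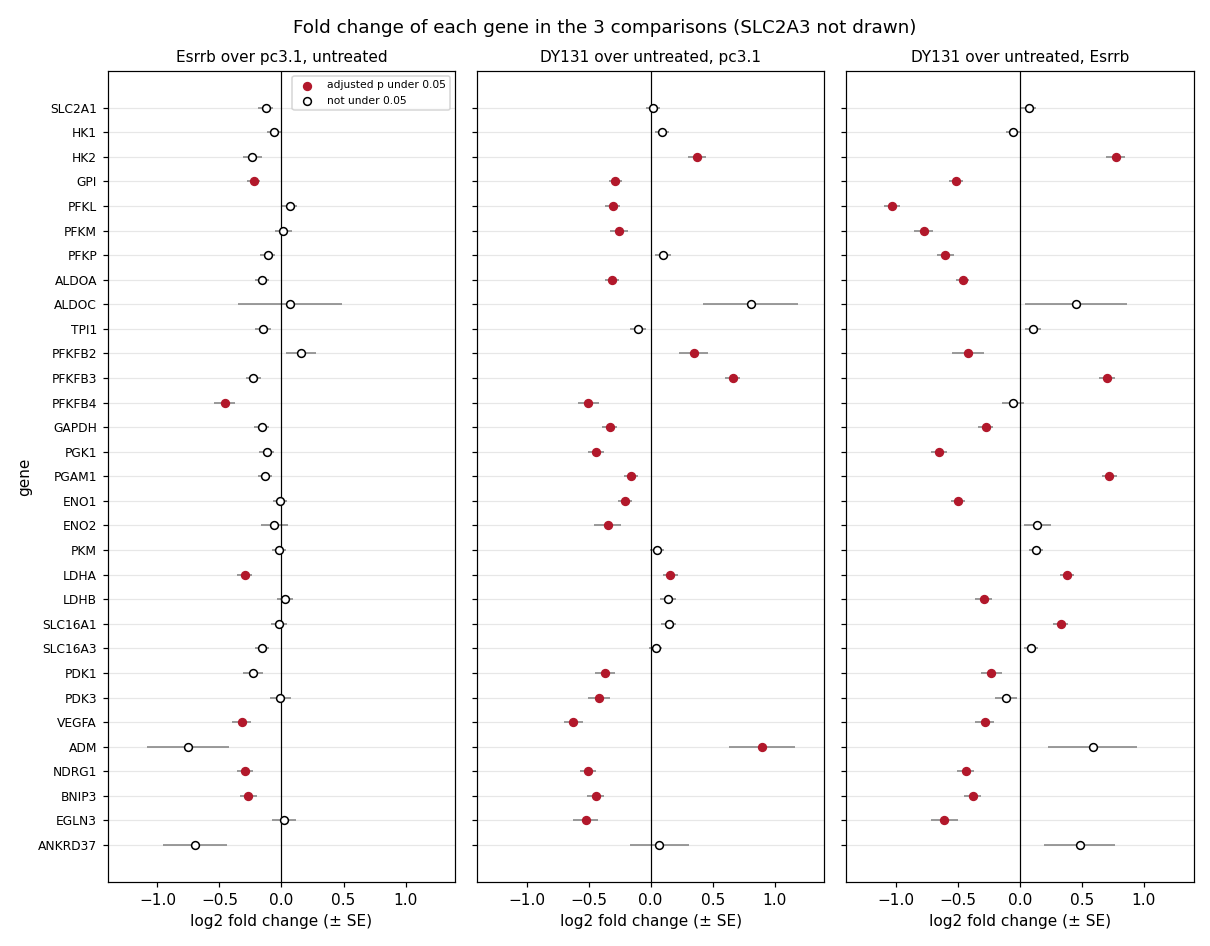
Log2 fold change of 31 genes (points, with SE bars) in the 3 comparisons, filled red at an adjusted p under 0.05 and open otherwise. SLC2A3 is not drawn because its change in DU145-Esrrb cells lies outside the axis. The panel of Esrrb alone has 6 red points, all left of 0, and the DY131 panels have red points on both sides.

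The second comparison took DY131 in DU145-pc3.1 cells, the pool without the Esrrb transgene. Of the 32 genes 5 rose (against 18.9% of all genes) and 16 fell (against 18.5% of all genes). None reached a log2 fold change of 1 in size, against 4.19% of all genes. Over the 32 genes the log2 fold changes had a median of -0.13, beside 0.00 over all genes, and 18 lay below 0. Leaving out either library of DY131-treated DU145-pc3.1, the pair that differed most, gave 21 genes again. Leaving out untreated DU145-pc3.1 library 2 gave 13. The 5 genes that rose became 2 without either untreated DU145-pc3.1 library, 3 with DESeq2, with library size alone or with only the libraries compared, and 8 with the length and GC offset.

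In the first steps of the path, HK2, the regulated hexokinase of tumour and muscle cells (chromosome 2, 74833981 to 74893359), was at 84.1 and 91.2 cpm in untreated and 117 and 110.1 cpm in DY131-treated DU145-pc3.1 cells (log2 0.38 ± 0.074 SE, adjusted p = 0.000986). The treated libraries were both higher. They were also both higher for HK1, the housekeeping hexokinase, which did not pass (log2 fold change 0.09, adjusted p = 0.21). PFKFB3, the inducible isoform that makes fructose-2,6-bisphosphate and so activates phosphofructokinase (chromosome 10, 6144934 to 6254644), went from 159.9 and 161 cpm to 268 and 239 cpm (log2 0.66 ± 0.063 SE, adjusted p = 1.66e-06). The other isoforms of that enzyme moved in opposite directions. PFKFB2, the cardiac isoform, rose by a log2 of 0.35 from a mean of 14.3 cpm (adjusted p = 0.0312) and PFKFB4 fell by 0.50 on the log2 scale (adjusted p = 0.000235). GPI was at 622 and 628 cpm with DY131, below both untreated libraries (log2 -0.28 ± 0.055 SE, adjusted p = 0.000806). Of the phosphofructokinases, which commit sugar to glycolysis, PFKL (-0.31, adjusted p = 0.00113) and PFKM (-0.26, adjusted p = 0.00896) fell and PFKP did not pass (0.10, adjusted p = 0.219). ALDOA fell as well (-0.31, adjusted p = 0.000389), while TPI1, the triosephosphate isomerase, had a log2 fold change of -0.10 (adjusted p = 0.231). The rise of PFKFB2 was lost in 7 of 19 alternative settings and the fall of PFKM in 3, DESeq2 among them in both.

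In the later steps, PGK1, the first ATP-forming enzyme of the path (chromosome X, 77910739 to 78129296), was at 1113 and 1196 cpm in untreated and 811 and 892 cpm in DY131-treated DU145-pc3.1 cells (log2 -0.44 ± 0.063 SE, adjusted p = 7.1e-05). GAPDH was at 4089 and 4369.8 cpm with DY131, so both treated libraries lay below both untreated ones (log2 -0.33 ± 0.061 SE, adjusted p = 0.000581). ENO1 (chromosome 1, 8861000 to 8879250) went from 3189.8 and 3316 cpm to 2763 and 2883 cpm (log2 -0.20 ± 0.056 SE, adjusted p = 0.00925). For these 3 genes both treated libraries lay below both untreated ones, with folds of 0.737, 0.796 and 0.868. The phosphoglycerate mutase PGAM1 fell by 0.16 on the log2 scale (adjusted p = 0.0423), a call lost in 10 of 19 alternative settings. The neuronal enolase ENO2 fell too (-0.35, adjusted p = 0.0211, lost in 5 of 19 settings), with 95.9 and 68.9 cpm in the treated libraries against 97.6 and 112 cpm. PKM, the last enzyme of the path, had a log2 fold change of 0.05 (adjusted p = 0.515), though both treated libraries lay above both untreated ones.

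Among genes of lactate and pyruvate handling, LDHA rose from 1542 and 1646 cpm to 1736 and 1824 cpm (log2 0.16 ± 0.059 SE, adjusted p = 0.0433), a call lost in 11 of 19 settings. LDHB, the isoform that favours pyruvate formation, did not pass (0.14, adjusted p = 0.118), nor did the lactate transporters SLC16A1 (0.14) and SLC16A3 (0.04). The pyruvate dehydrogenase kinases PDK1 (-0.37, adjusted p = 0.00259) and PDK3 (-0.42, adjusted p = 0.00184) both fell. Of the hypoxia-inducible genes outside glycolysis, VEGFA (-0.62), NDRG1 (-0.51), BNIP3 (-0.44) and the prolyl hydroxylase EGLN3 (-0.52) fell, with adjusted p between 1.71e-05 for VEGFA and 0.000983 for EGLN3. BNIP3 was at 414 and 458 cpm untreated and 307 and 336 cpm with DY131, and EGLN3 at 25.6 and 25.8 cpm and 17.4 and 18.3 cpm. ADM moved the other way, from 2.29 and 2.2 cpm to 3.46 and 4.96 cpm (log2 0.90, adjusted p = 0.0152, lost in 4 of 19 settings), and ANKRD37, an ankyrin-repeat gene, had a log2 fold change of 0.07.

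The comparison of DY131 in DU145-Esrrb cells carried a pattern over all genes that has to stand beside its values. The share of a transcript's 50-base windows that cross an exon junction had a median of 14.3% over the tested genes with a value and 19.5% over the 32 genes, from 4.53% for SLC16A1 to 41.3% for PFKP. With all genes cut by junction share into 5 bins of equal size, the median log2 fold change of this comparison was 0.26 in the lowest bin and -0.43 in the highest, where 8 of the 32 genes lay. In DU145-pc3.1 cells the same medians were -0.02 and 0.01. The values the results turn on are therefore given also from a model with an offset for the junction share. The offset was fitted to these same counts, as a smooth curve on junction share in each library. In that model the medians of the bins lay between -0.04 and -0.02, which follows from how the offset is built. A response to DY131 that goes with junction share would be taken out as well. What part of each fold change goes with junctions was not tested.

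In DU145-Esrrb cells 5 of the 32 genes rose with DY131 (against 29.2% of all genes) and 16 fell (against 29.5% of all genes). With the junction offset 6 rose and 12 fell, and of all 13856 tested genes 3559 rose and 3794 fell in that model. Without the offset SLC2A3 and PFKL also reached a log2 fold change of 1 in size, which 12.0% of all genes did. The 32 log2 fold changes had a median of -0.17, beside 0.00 over all genes, and 19 lay below 0. Leaving out 1 library at a time gave 19 to 23 genes. The 5 that rose became 8 with only the libraries compared or with the length and GC offset. In these cells CD68 had a mean of 92.1 cpm with DY131 and 74.6 cpm without. The epithelial markers summed to 4119 to 4153 cpm with DY131 and 4108 to 4123 cpm without, and of the 6 tested KRT8 and KRT19 rose and KRT7, EPCAM and CDH1 fell. The part of these markers in the results was not tested.

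Without the offset SLC2A3, PFKL and PFKM had the largest falls, and PGK1 (-0.65) and EGLN3 (-0.61) came before PFKP. With the junction offset EGLN3 (-0.81) and PGK1 (-0.78) fell further than PFKL. SLC2A3 (chromosome 12, 7919230 to 7936275) had 31 and 23 reads in untreated and 0 and 2 reads in DY131-treated DU145-Esrrb cells. The ratio of the summed reads, scaled by library size, was 0.0508 (exact 95% interval 0.00600 to 0.193, counting error only), and the adjusted p was 5.71e-05. In cpm, the 0 and 0.226 of the treated libraries also lay below the 1.4 and 0.992 of DY131-treated DU145-pc3.1 cells. PFKL, the liver-type phosphofructokinase (chromosome 21, 44300051 to 44327376), was at 183 and 169 cpm in untreated and 88 and 84.8 cpm in treated DU145-Esrrb cells (log2 -1.03 ± 0.065 SE, adjusted p = 5.54e-09). PFKM, the muscle type (chromosome 12, 48105139 to 48146404), went from 70.9 and 73.2 cpm to 43.5 and 40.7 cpm (log2 -0.78 ± 0.075 SE, adjusted p = 4.3e-07). PFKP, the platelet type (chromosome 10, 3066333 to 3137712), went from 225 and 246 cpm to 153 and 158 cpm (log2 -0.60 ± 0.065 SE, adjusted p = 1.47e-06). In all 3 isoforms the treated libraries were the lower ones, as they also were for HK1, which did not pass. These isoforms have high junction shares, 35.8%, 33.8% and 41.3%. With the junction offset PFKL and PFKM still fell, by 0.54 and 0.35 on the log2 scale (adjusted p = 4.69e-06 and 0.00129), whereas PFKP was at 0.06 (adjusted p = 0.432), no longer a fall.

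HK2, PFKFB3 and PGAM1 had the largest rises. HK2 was at 72.6 and 76.4 cpm in untreated and 135 and 119 cpm in DY131-treated DU145-Esrrb cells (log2 0.77 ± 0.076 SE, adjusted p = 5.18e-07, 0.74 with the offset). PFKFB3 was at 134 and 141 cpm against 223 and 224 cpm (log2 0.70 ± 0.064 SE, adjusted p = 2.49e-07, 0.71 with the offset). PGAM1 (chromosome 10, 97426160 to 97433441) was at 772 and 797 cpm against 1306 and 1279 cpm (log2 0.72 ± 0.059 SE, adjusted p = 7.74e-08, 0.54 with the offset). In each of the 3 genes both treated libraries were above both untreated ones, and each rise passed in all 17 alternative settings. The PGAM1 counts carry the uncertainty of its shared windows. HK1 (-0.06), SLC2A1 (0.07) and TPI1 (0.11) did not pass, though their treated libraries also lay apart from the untreated ones. With the offset TPI1 was at 0.27 (adjusted p = 0.00314).

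The remaining enzymes of the path fell or stayed under the threshold. GPI went from 642 and 661 cpm to 469 and 443 cpm (log2 -0.51 ± 0.055 SE, adjusted p = 1.44e-06, -0.43 with the offset). PGK1 went from 1024 and 1099 cpm to 680.0 and 673 cpm (log2 -0.65 ± 0.064 SE, adjusted p = 5.53e-07, -0.78 with the offset). ENO1 went from 3237 and 3214 cpm to 2284 and 2277 cpm (log2 -0.50 ± 0.056 SE, adjusted p = 2.11e-06), and its fall was 0.16 on the log2 scale with the offset (adjusted p = 0.0322). The treated libraries were the lower ones in all 3 genes, as they also were for PFKFB4, which did not pass. PGK1, with few junction windows (10.1%), fell further with the offset. ALDOA fell (-0.46, -0.26 with the offset) and PKM did not pass (0.13, adjusted p = 0.0615) but did with the offset (0.18, adjusted p = 0.016). GAPDH was at 4701 and 4824 cpm untreated and 3969.8 and 3904 cpm treated (log2 -0.27 ± 0.061 SE, adjusted p = 0.00116), but at -0.03 with the offset (adjusted p = 0.727). Both treated libraries were below both untreated ones, and the call rests on the model without the offset. PFKFB2 fell (-0.42, adjusted p = 0.0117, -0.34 with the offset), a call lost with DESeq2 and without DU145-Esrrb library 2 of either treatment, and PFKFB4 did not pass (-0.06, adjusted p = 0.595).

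LDHA rose from 1262 and 1334 cpm to 1699.9 and 1682 cpm (log2 0.38, adjusted p = 5.02e-05, 0.51 with the offset), and LDHB fell from a mean of 621 to 507 cpm (log2 -0.29, adjusted p = 0.00177), or by a log2 of -0.17 with the offset (adjusted p = 0.0494). The lactate transporter SLC16A1 rose (0.33, adjusted p = 0.000268), but was at 0.08 with the offset (adjusted p = 0.299). SLC16A3, the hypoxia-inducible transporter, did not pass (0.09). PDK1 fell by 0.23 on the log2 scale (adjusted p = 0.0341), a call lost in 6 of 17 settings, and PDK3 did not pass (-0.11). NDRG1 (-0.44), BNIP3 (-0.38), EGLN3 (-0.61) and VEGFA (-0.28) fell again, with adjusted p between 5.29e-05 for NDRG1 and 0.00536 for VEGFA. With the offset VEGFA was at -0.08 (adjusted p = 0.389) and the others at -0.37, -0.55 and -0.81. ADM (0.59), ANKRD37 (0.48) and ALDOC (0.46), all under 5 cpm in every library, and ENO2 (0.14) did not pass.

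**Figure D3:**
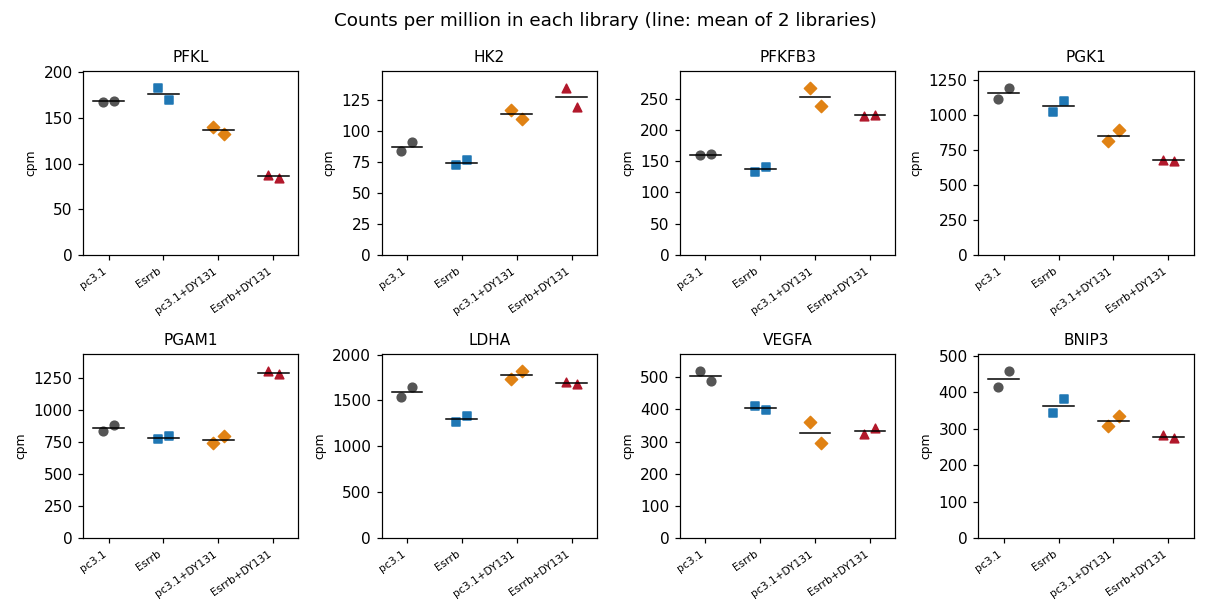
Level in cpm (vertical axes from 0) of 8 genes in each library, by group, with a line at the mean of 2 libraries. PFKL and PGK1 are lowest in DY131-treated DU145-Esrrb, HK2 and PFKFB3 are higher in both DY131 groups, and PGAM1 is high only in DY131-treated DU145-Esrrb among these 4 groups.

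**Figure D4:**
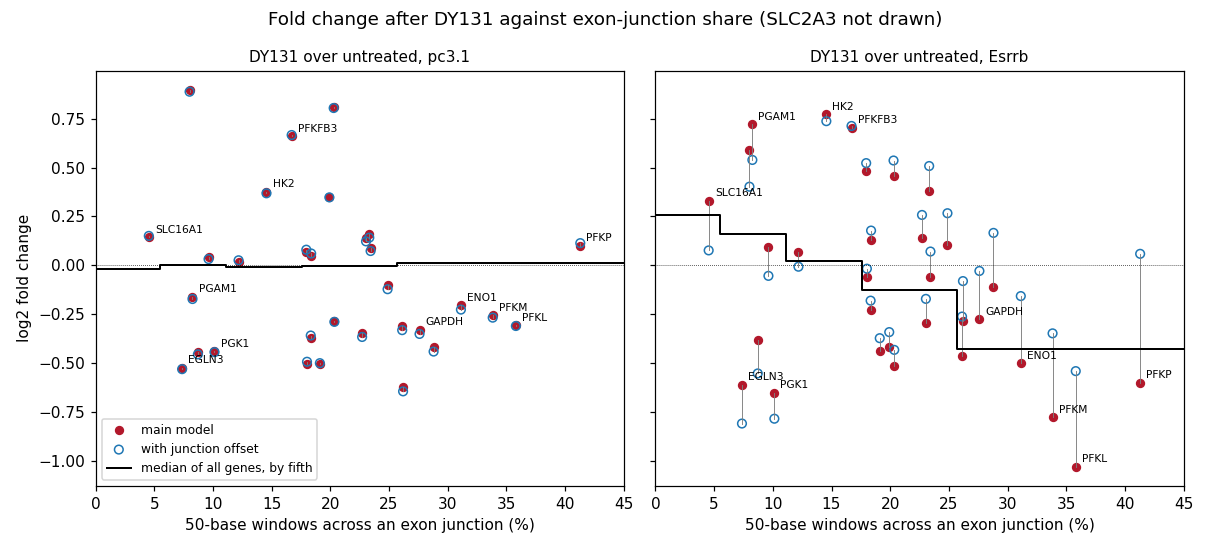
Log2 fold change of 31 genes after DY131 (vertical) against the percent of their 50-base windows that cross an exon junction (horizontal), in DU145-pc3.1 (left) and DU145-Esrrb cells (right). Filled points come from the model without the offset and open points from the model with the junction offset, and the black line is the median of all genes by bin. At right the line falls from 0.26 to -0.43 and PFKP moves from -0.60 to 0.06 with the offset, while at left filled and open points nearly coincide.

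The 2 DY131 comparisons share no library, so their calls were set side by side. Of the 16 genes that fell in DU145-pc3.1 cells and the 16 that fell in DU145-Esrrb cells, 12 were shared (75.0% of each), namely GPI, PFKL, PFKM, ALDOA, GAPDH, PGK1, ENO1, PDK1, VEGFA, NDRG1, BNIP3 and EGLN3. Over all tested genes 1603 fell in both, 62.4% of those that fell in DU145-pc3.1 and 39.3% of those in DU145-Esrrb cells. Of the 5 and 5 that rose, 3 were shared (60.0% of each), namely HK2, PFKFB3 and LDHA, against 63.2% and 40.9% over all genes. PGAM1 fell in DU145-pc3.1 and rose in DU145-Esrrb cells, and PFKFB2 rose in the former and fell in the latter, with both PFKFB2 calls and the PGAM1 fall lost in some settings as given above. PFKFB4, ENO2 and PDK3 fell in DU145-pc3.1 cells alone by this threshold, and SLC2A3, PFKP and LDHB in DU145-Esrrb cells alone, so the difference itself was tested next.

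The interaction term, the DY131 effect in DU145-Esrrb minus that in DU145-pc3.1 cells, was above 0 for 5 of the 32 genes (16.1% of all genes) and below 0 for 8 (17.6% of all genes) at an adjusted p under 0.05. Only SLC2A3 also reached 1 in size, against 6.28% of all genes. The median was 0.05, beside 0.00 over all genes. The 5 positive terms became 1 without DY131-treated DU145-Esrrb library 1, 3 without its library 2, 2 without either untreated DU145-Esrrb library, 3 without untreated DU145-pc3.1 library 2 and 8 without DY131-treated DU145-pc3.1 library 2. PGAM1 differed most among the well-counted genes, with a DY131 effect of -0.16 in DU145-pc3.1 and 0.72 in DU145-Esrrb cells (interaction 0.88 ± 0.083 SE, adjusted p = 1.71e-06, 0.71 with the offset). HK2 rose more in DU145-Esrrb cells (interaction 0.40, adjusted p = 0.00924, 0.37 with the offset). PFKFB4 (0.45), ENO2 (0.49) and VEGFA (0.34) were the other positive terms, and each of them was a gene that fell in DU145-pc3.1 cells. For SLC2A3 the interaction was -4.13 (adjusted p = 0.00167), and the ratio of reads, scaled by library size, between DY131-treated DU145-Esrrb and DU145-pc3.1 cells was 0.101 (exact 95% interval 0.0116 to 0.404).

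Without the offset the phosphofructokinases had negative interactions, -0.72 for PFKL, -0.52 for PFKM and -0.70 for PFKP. With the junction offset these were -0.23, -0.08 and -0.05, and none passed (adjusted p = 0.073, 0.627 and 0.683). GPI (-0.23, then -0.14) and ENO1 (-0.30, then 0.07) lost their calls in the same way. PFKFB2 (-0.76, then -0.69) and LDHB (-0.43, then -0.29) kept theirs. PGK1 gained one (-0.21, adjusted p = 0.0833, then -0.34, adjusted p = 0.0122), as did GAPDH (0.06, adjusted p = 0.656, then 0.32, adjusted p = 0.0171). TPI1 (0.39), LDHA (0.37) and PDK3 (0.61) also passed with the offset only, and in that model 9 genes were above and 4 below 0. Of all 13856 tested genes 1366 were above and 1682 below 0 in that model. For PFKFB3 (0.04), NDRG1 (0.07), BNIP3 (0.06) and EGLN3 (-0.08) the interaction did not pass in either model.

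Per transcript length, the make-up of the isoform families was compared between the groups. HK2 made up 22.6% and 24.3% of the summed RPKM of HK1 and HK2 in untreated DU145-pc3.1, 21.1% and 21.6% in untreated DU145-Esrrb, 27.8% and 26.5% in DY131-treated DU145-pc3.1, and 34.5% and 30.7% in DY131-treated DU145-Esrrb cells. The treated libraries of both pools lay above all untreated ones. PFKFB3 made up 69.5% and 70.1% of the RPKM of PFKFB2, PFKFB3 and PFKFB4 in untreated DU145-pc3.1 and 70.0% and 71.1% in untreated DU145-Esrrb cells. With DY131 it made up 81.4% and 81.0% in DU145-pc3.1 and 81.1% and 81.8% in DU145-Esrrb cells, so every treated library lay above every untreated one. The LDHA share of LDHA and LDHB was lowest in untreated DU145-Esrrb (70.5% and 71.6%) and highest in DY131-treated DU145-Esrrb cells (79.9% and 79.4%), with 75.3% and 75.6% in untreated and 76.7% and 74.7% in treated DU145-pc3.1 cells. PFKP was the main phosphofructokinase in all groups, with mean shares between 50.6% and 60.1%. PFKL took a mean of 33.7% in untreated and 28.6% in treated DU145-pc3.1, and 36.1% and 30.0% in DU145-Esrrb cells. These shares carry no junction offset and no test.

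**Figure D5:**
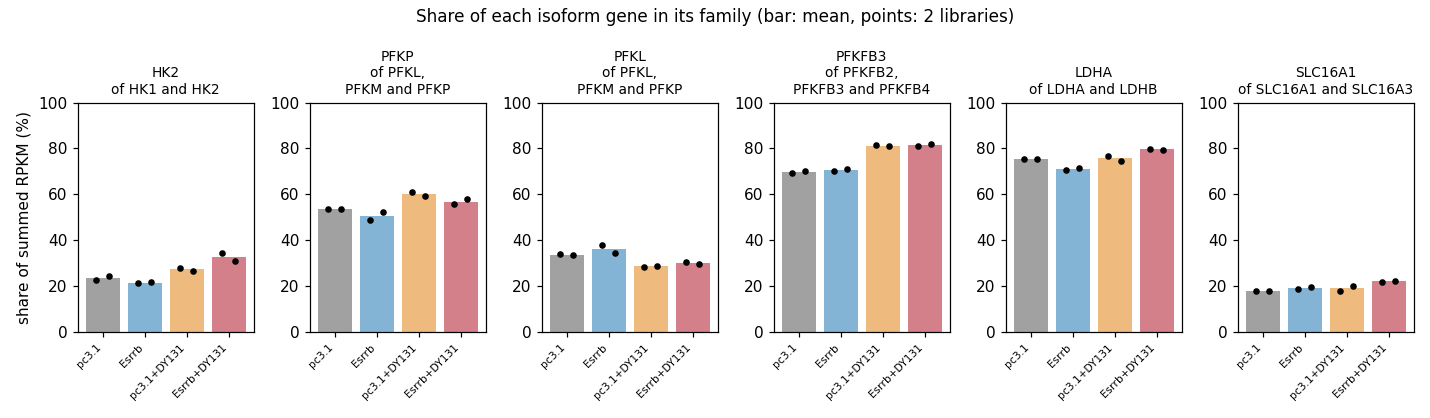
Share (%) of 6 genes in the summed RPKM of their family, by group, with bars at the mean and points for the 2 libraries. The HK2 share rises from means of 23.4% and 21.3% to 27.2% and 32.6% with DY131, and the PFKFB3 share from 69.8% and 70.6% to 81.2% and 81.4%.

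Genes around the pathway were taken from lists of known function, and their counts are without the junction offset. Of 42 other genes of glycolysis and pyruvate metabolism 31 were tested. With Esrrb alone 1 fell and 0 rose, with DY131 5 rose and 11 fell in DU145-pc3.1, and 7 rose and 15 fell in DU145-Esrrb cells (medians -0.02, -0.01 and -0.14). Over all genes the shares that rose and fell were 1.68% and 2.5%, 18.9% and 18.5%, and 29.2% and 29.5%, and the list counts here and below are to be read against these. PCK2, the mitochondrial enzyme that makes phosphoenolpyruvate, was the gene that fell with Esrrb (-0.33, adjusted p = 0.0349). It fell with DY131 from a mean of 47.1 to 14.8 cpm in DU145-pc3.1 and from 37.4 to 25.4 cpm in DU145-Esrrb cells, and the interaction was 1.11 (adjusted p = 2.62e-05). PC, the pyruvate carboxylase, fell in both pools (log2 -1.18 and -1.49). So did PDK2, a further pyruvate dehydrogenase kinase, from 25.1 to 12.9 cpm and from 26.2 to 13.9 cpm, and PDK4 (log2 -1.20 and -0.72, adjusted p = 0.000823 and 0.0135). PDP2, a phosphatase that reactivates pyruvate dehydrogenase, rose in DU145-Esrrb (0.62, adjusted p = 7.09e-06, 0.32 with the offset) and was at 0.08 in DU145-pc3.1 cells (interaction adjusted p = 0.00193). PGAM5 is counted in the list, although it encodes a mitochondrial protein phosphatase and not a glycolytic enzyme. It rose in DU145-pc3.1 (0.26, adjusted p = 0.00485) and in DU145-Esrrb cells (0.54, adjusted p = 2.98e-06, 0.37 with the offset). Its interaction was 0.28 (adjusted p = 0.0236).

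Of 14 components of the HIF pathway 13 were tested. With Esrrb alone 3 rose and 0 fell: HIF1A, the oxygen-regulated subunit, from a mean of 445 to 560.4 cpm (0.33, adjusted p = 0.00631), its antisense HIF1A-AS2 (0.32), whose reads cannot be told apart from those of HIF1A here, and ARNT2, a partner subunit (0.43, adjusted p = 0.0282). With DY131 4 rose and 2 fell in DU145-pc3.1, and 7 rose and 3 fell in DU145-Esrrb cells (list medians 0.01, 0.04 and 0.30). HIF1A rose in both pools (0.20 and 0.27, adjusted p = 0.0185 and 0.00153), so its level was highest in DY131-treated DU145-Esrrb at 677 cpm. EPAS1, which encodes HIF2-alpha, rose in DU145-pc3.1 (0.47) and fell in DU145-Esrrb cells (-0.39), with an interaction of -0.86 (adjusted p = 3.53e-05). CITED2, which competes with HIF1 for its coactivators, fell in both pools (-0.95 and -0.80). The oxygen sensors EGLN1 (0.58) and HIF1AN (0.54), and VHL (0.38), which marks HIF1A for breakdown, rose in DU145-Esrrb cells. With the junction offset these were 0.29, 0.25 and 0.09, and VHL no longer passed (adjusted p = 0.318). ARNT, the constant partner subunit, named after its values were seen, was 1 of the 3 that fell (-0.26) and stood at 0.38 with the offset (adjusted p = 0.000252).

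Of 45 other HIF target genes 41 were tested. With Esrrb alone 6 fell and 0 rose, with DY131 9 rose and 17 fell in DU145-pc3.1, and 10 rose and 15 fell in DU145-Esrrb cells (medians -0.19, -0.15 and -0.05). The interaction was above 0 for 14 and below 0 for 9 of them, against 16.1% and 17.6% of all genes. STC2, a secreted glycoprotein, fell with Esrrb from 235 to 136 cpm (-0.79, adjusted p = 9.92e-06), and so did the heme oxygenase HMOX1, from 71.6 to 44.8 cpm (-0.67). DDIT4, an inhibitor of mTOR signalling, fell with DY131 from 504 to 172 cpm in DU145-pc3.1 and from 446 to 257 cpm in DU145-Esrrb cells. The transferrin receptor TFRC rose from 463 to 1039 and from 392 to 1214 cpm. The transcriptional repressor BHLHE40 fell in both pools (-0.74 and -1.01), as did the amino acid transporter SLC7A5 (-0.64 and -0.43). The lysyl oxidases LOX (1.48) and LOXL2 (-1.07) changed in opposite directions in DY131-treated DU145-Esrrb cells.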

How the data were processed

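RNA of 8 samples was sequenced as 50-base single-end reads from stranded mRNA libraries. TopHat2 alignment to hg18 followed trimming and filtering by the authors, who deposited raw counts of reads per gene. Whether counting used the strand, and what it did with reads matching more than 1 gene, is not given in the sources used here. The counts were used as deposited, and samples were grouped by the labels.

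Genes reaching 1 cpm in 2 or more libraries (13856 of 23391) were normalized by TMM and fitted in 1 model of 4 groups with edgeR 4.0.16 in R 4.3.3. Each comparison used the quasi-likelihood F test with Benjamini-Hochberg adjustment over all tested genes, the threshold being an adjusted p under 0.05. The study's exact test, DESeq2 1.42.0, other scalings and filters, offsets for exon junctions or for length and GC content, and each library left out were alternatives. Values given as cpm use TMM-scaled library sizes, and each SE is the log2 fold change over the square root of its F statistic. Transcript length, exon junctions, shared windows and gene positions came from GENCODE 29 on GRCh38, matched by RefSeq identifier (22019 genes), symbol (722) or older symbol (239). The steps were tested on simulated data.

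The 33 genes and the lists were chosen with earlier results of these data known. Values in single libraries are given for the genes that pass both thresholds, for those with the smallest adjusted p up to 10, and for GAPDH, with some further genes whose values bear on a group. For PFKL, PFKM, PFKP and PGAM1 the text gives them for the DU145-Esrrb libraries alone. From each list some of the genes with the smallest adjusted p in a comparison are named. Some marker genes are not reported here. The depth of 7858743 to 11551690 counted reads limits SLC2A3, ADM, ANKRD37 and ALDOC most. With 2 libraries per group, p-values measure the spread between these libraries. Where the libraries of 2 groups are said to lie apart, the share of all genes that do so is not given.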

Additional observations from a re-analysis of the deposited data

Results flagged for a closer look

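For 13 of the 32 tested genes the DY131 effect differed between the cell pools by the interaction term of the edgeR model. The values are the log2 effect of DY131 in DU145-Esrrb minus that in DU145-pc3.1 cells. They were above 0 for PGAM1 (0.88), ENO2 (0.49), PFKFB4 (0.45), HK2 (0.40) and VEGFA (0.34). They were below 0 for SLC2A3 (-4.13), PFKFB2 (-0.76), PFKL (-0.72), PFKP (-0.70), PFKM (-0.52), LDHB (-0.43), ENO1 (-0.30) and GPI (-0.23). With the exon-junction offset PFKL, PFKM, PFKP, ENO1 and GPI were no longer past the threshold. Leaving out 1 library at a time, or another setting, ended the call of HK2 in 3 of 15 alternatives, of PFKFB4 in 3, and of ENO2, GPI and VEGFA in 6 each. The calls of SLC2A3, PFKFB2, PGAM1 and LDHB passed in all 15.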

How the results depend on the processing

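Of 2240 alternative values of single genes, 2055 kept their direction and side of the threshold, or were called in neither setting, 115 fell below it, 68 rose above it and 2 reversed, both with the exon-junction offset: PFKP after DY131 in DU145-Esrrb cells (0.0590) and the interaction of ENO1 (0.0691). The 6 genes changed by Esrrb became 10 with only the libraries compared, 2 in the 6 numbered libraries without a block, and 0 to 14 with 1 library left out. The 21 genes changed by DY131 in DU145-pc3.1 cells became 13 to 21 with 1 library left out. In DU145-Esrrb cells the 21 became 19 to 23, and the 13 interactions 9 to 16. With the length and GC offset, 8 genes rose and 15 fell with DY131 in DU145-pc3.1 cells, in place of 5 and 16. With the junction offset the interactions were 9 above and 4 below 0, in place of 5 and 8. Over all genes they were 1366 above and 1682 below 0, in place of 2234 and 2440. The cause of these shifts was not tested.

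A replicate block could be fitted only in the 6 libraries with numbered columns, since the columns of DU145-Esrrb with DY131 have 1 shared heading and no number. The labels do not say that a number marks a shared culture or day, and same-numbered libraries had correlations of 0.0917, 0.0229 and -0.0685. With the replicate block 6 genes changed with Esrrb, against 2 without it in these libraries, and 20 with DY131 in DU145-pc3.1 cells, against 19.

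Over all genes, 579 differed between the untreated pools. DESeq2 gave 317, only the libraries compared 1209, no filter 948, the replicate block 397 and the same 6 libraries without it 370, and leaving out 1 library 140 to 1523. The 5185 genes changed by DY131 in DU145-pc3.1 cells became 3418 without DU145-pc3.1 library 1. The 4674 interactions became 2897 with DESeq2, 3048 with the junction offset and 3198 to 5486 with 1 library left out. No exact test of the interaction was run, since that test compares 2 groups. Depth limits SLC2A3, ADM, ANKRD37 and ALDOC, with at most 5 cpm in any library.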
